A study of Mus musculus with 6 samples.

Results

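Desmosomes are spot junctions that rivet neighbouring epithelial cells together and tie their keratin filaments into 1 mechanical network. Desmogleins and desmocollins, which are cadherins, span the membrane and bind their partners on the next cell. Inside the cell the armadillo proteins plakoglobin and the plakophilins hold the cadherin tails, and desmoplakin links them to keratin. Perp is a tetraspan membrane protein of desmosomes whose gene is a known target of both p53 and its relative p63, the transcription factor of basal epithelium. The 10 genes described here are Dsg2, Dsg3, Dsc2, Dsc3, Dsp, Jup, Pkp1, Pkp2, Pkp3 and Perp. They were taken by name from 22180 measured genes, all 10 were found, and each was read from the probe set of highest mean over the arrays.

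The cells were mammary basal cells, the outer, contractile layer of the gland, from virgin female mice 8 to 14 weeks old. Freshly dissociated glands were depleted of CD45, CD31 and TER119 positive cells with beads, and basal cells were sorted after staining that included CD49f and CD24. The wild type group had 3 arrays and the knockout group 3 arrays, each a biological replicate, and the knockout genotype is labelled Trp53-/-, p16ink4a-/- and p19arf-/-, the last 2 being both products of Cdkn2a. The labels give the same sort and no treatment for both groups. They do not say whether an array holds 1 mouse or a pool. Values are log2 signals of whole-transcript arrays. A probe set's signal depends on its probes, so signals were compared between arrays and never between genes.

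Array medians over all probe sets lay between 5.22 and 5.39, and no array repeated another. Cdkn2a read 6.42, 5.84 and 6.48 in wild type against 6.25, 6.31 and 6.39 in knockout cells. The labels cannot be checked from these genes: the place of the Cdkn2a probes relative to the deletion is not given in the sources used here, and Trp53 was not analysed here. The 9 measured of 10 basal markers had means from 10.6 to 10.9 in wild type and from 10.5 to 11.0 in knockout cells. The 11 measured of 12 luminal markers, of the inner milk-secreting layer which was not the sorted population, had means from 7.60 to 8.84 in wild type and from 7.68 to 8.15 in knockout cells. All 6 fibroblast markers had higher means in the knockout, with array means of 6.84, 6.68 and 6.44 in wild type against 7.24, 7.03 and 7.19 in knockout cells. The rise was uneven. It was 1.28 for Lum, 0.85 for Pdgfra and 0.54 for Dcn, and from 0.06 to 0.14 for the collagen markers.

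Promoter sequences from RefSeq were found for 2 of the members, Dsp and Jup. They are shown as the members of the table that encode plaque proteins of every desmosome. Each is the 250 bases before the gene's start, from 5′ to 3′ on the gene's own strand in build GRCm38.p6. The window of Dsp, on the plus strand, is chr13:38151044-38151293, and that of Jup, on the minus strand, is chr11:100397791-100398040. Capitals mark the GC box GGGCGG and the CCAAT box CCAAT, on either strand, and the consensus half-site of p53.
Dsp: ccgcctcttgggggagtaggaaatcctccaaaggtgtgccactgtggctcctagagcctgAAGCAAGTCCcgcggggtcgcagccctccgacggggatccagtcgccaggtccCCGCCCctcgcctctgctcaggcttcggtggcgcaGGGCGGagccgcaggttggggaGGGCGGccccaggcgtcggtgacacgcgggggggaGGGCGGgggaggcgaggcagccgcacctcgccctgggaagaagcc
Jup: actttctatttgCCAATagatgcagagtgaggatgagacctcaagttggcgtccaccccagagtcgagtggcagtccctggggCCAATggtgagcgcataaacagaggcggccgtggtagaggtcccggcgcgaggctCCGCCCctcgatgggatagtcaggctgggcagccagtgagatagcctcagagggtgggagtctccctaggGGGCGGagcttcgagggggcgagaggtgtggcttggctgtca
The Dsp window is 72.4% G and C and the Jup window 62.0%, beside a median of 52.4% over the 32851 windows of the table. The Dsp window holds 4 GC boxes and no CCAAT box, and the Jup window holds 2 of each. Of all windows 32.7% hold a GC box and 33.8% a CCAAT box. The consensus half-site of p53, the 10-base pattern that a full response element holds as a pair, is in 7.13% of all windows. It has 1 match in the Dsp window, not overlapping a GC box, and 0 in the Jup window, and a match is a description of letters, not a bound site. The E-box CAGGTG, in 17.2% of windows, and the TATA box TATAAA, in 12.4%, are in neither, which says only that these letters are not in the 250 bases.

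No desmosome gene passed the test between the genotypes. 3 of the 10 members had a higher mean in the knockout and 7 a lower one, with a median log2 difference (log2 fold change, knockout minus wild type) of -0.07 beside -0.01 over all genes, of which 51.7% were lower. With limma, 0 of the 10 passed an adjusted p of 0.05, on a background of 0 of 22180 genes (0%), and the members' adjusted p was 1.0 throughout. At an unadjusted p under 0.05 there were 0 members, where 736 genes (3.32%) passed, or 1112 (5.01%) with replicate as a block. The groups did not overlap for 1 member, Jup, which was lower on every knockout array. That is 1 of 10, while 4.05% of all genes had groups apart in that direction and 7.68% in either direction. With 10 members, 1 gene is too few to tell the share from the background. The median size of the difference, sign set aside, was 0.13 for the members and 0.11 for all genes.

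**Figure D1:**
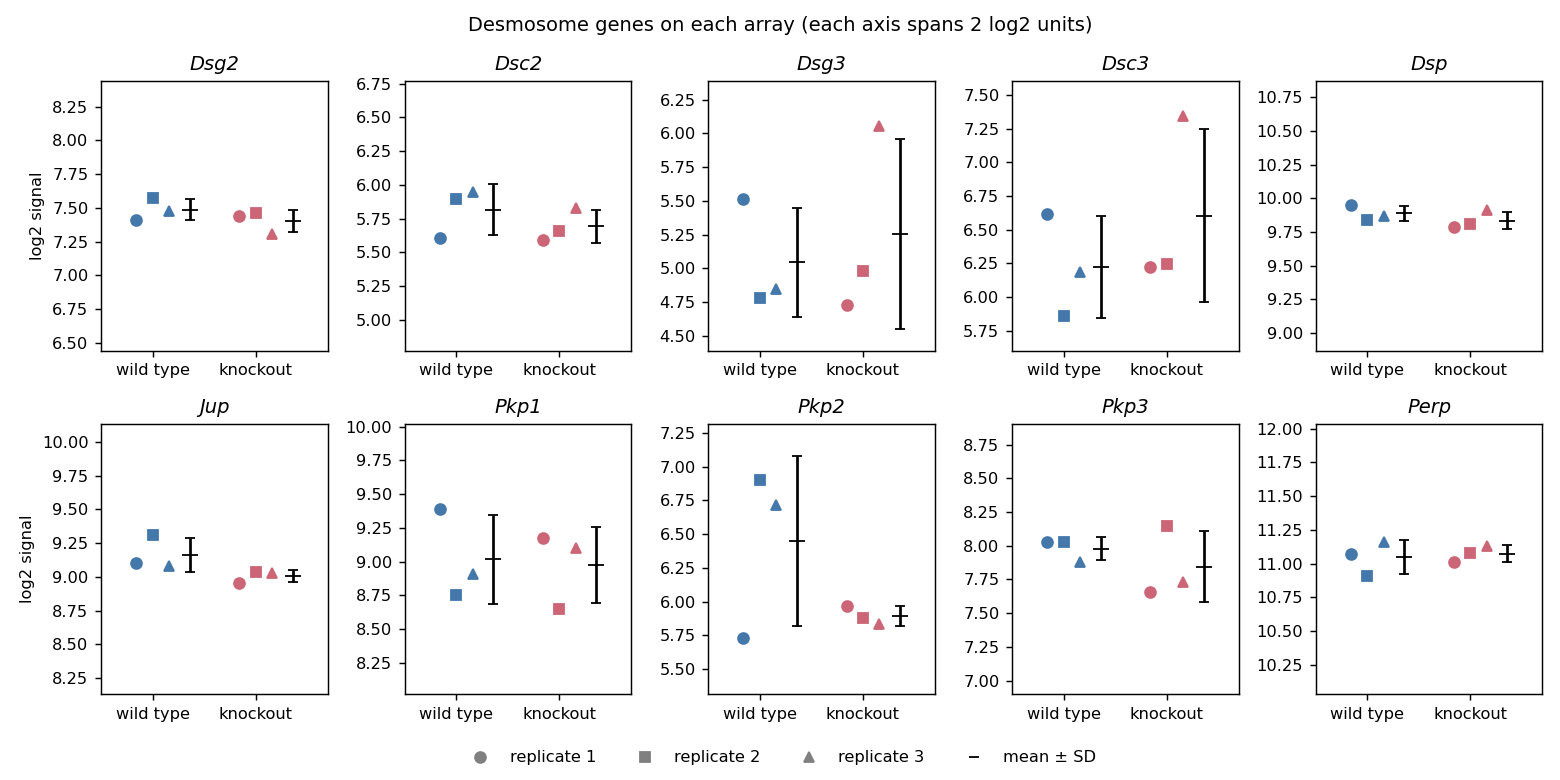
Log2 signal of each desmosome gene on the 3 wild type (blue) and 3 knockout (red) arrays, with symbols for the replicate and the mean ± SD beside each group; every axis spans 2 log2 units but starts at a different level. Perp and Dsp are nearly level across arrays, Pkp2 is high on wild type replicates 2 and 3, and Dsg3 and Dsc3 are highest on knockout replicate 3.

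Perp spanned less over the 6 arrays than most genes with a mean of at least 6. Its log2 signal was 11.07, 10.91 and 11.16 in wild type against 11.01, 11.08 and 11.13 in knockout cells, so all knockout values lay inside the wild type range. The means were 11.05 ± 0.127 (SD, n = 3) and 11.07 ± 0.061 (SD, n = 3), a log2 difference of 0.03 (standard error 0.122, limma adjusted p = 1.0). The 95% interval of the difference ran from -0.25 to 0.30, which covers changes in either direction of up to about that size. From the lowest to the highest array Perp spanned 0.25, and 94.8% of the 10026 genes with a mean of at least 6 spanned more. The sign of so small a difference is not fixed. It turned with array weights (-0.05) and when wild type replicate 2 (-0.04) or knockout replicate 3 (-0.00072) was left out.

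Among those 10026 genes, the 5 whose deviations over the 6 arrays lay nearest to those of Perp were Rps12, Uqcrb, Ift20, Chmp2b and Rpl41. Rps12 and Rpl41 encode ribosomal proteins, Uqcrb a subunit of respiratory complex III, Ift20 a ciliary transport protein and Chmp2b a part of the membrane-remodelling ESCRT-III complex. Their root mean square differences from Perp lay between 0.0325 for Rps12 and 0.0406 for Rpl41 on the log2 scale. They span little themselves, between 0.18 for Chmp2b and 0.34 for Ift20, and Ift20 alone among them spans more than Perp. Dsp was the desmosome gene nearest to Perp, at 0.0793 and rank 175, and Pkp2 the farthest of the 7 other members in that range of signal, at 0.496.

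Desmoplakin and plakoglobin are the plaque proteins of every desmosome, and neither gene passed the test. Dsp, which encodes the desmoplakin link to keratin, read 9.95, 9.84 and 9.87 in wild type against 9.79, 9.81 and 9.91 in knockout cells, and the groups overlap. Its log2 difference was -0.05 (standard error 0.134, limma adjusted p = 1.0), and its 95% interval ran from -0.36 to 0.25. Of the 10026 genes with a mean of at least 6, 99.0% spanned more across the arrays than the 0.16 of Dsp. Jup, which encodes plakoglobin, a relative of beta-catenin found in desmosomes and adherens junctions alike, read 9.10, 9.31 and 9.08 in wild type against 8.95, 9.04 and 9.03 in knockout cells. Every knockout array of Jup thus lay below every wild type array. Same-numbered arrays differed by -0.15, -0.27 and -0.05. The log2 difference of Jup was -0.16 (standard error 0.150), a ratio of 0.897, and it did not pass (limma adjusted p = 1.0). It was -0.08 without wild type replicate 2, the highest array.

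The plakophilins, which cluster the cadherins and reinforce the plaque, differed from one another in how they varied. Pkp2, the form widespread in simple epithelia and heart, read 5.73, 6.90 and 6.72 in wild type against 5.97, 5.88 and 5.83 in knockout cells. Wild type replicates 2 and 3 were high, while wild type replicate 1 was the lowest of all 6 arrays. The wild type mean was 6.45 ± 0.632 (SD, n = 3) and the knockout mean 5.89 ± 0.071 (SD, n = 3). The log2 difference of -0.56, a ratio of 0.680, was the largest in size among the members, with an SE of 0.281 and a 95% interval from -1.19 to 0.08, and it did not pass (limma adjusted p = 1.0). Of all genes 2.06% had a larger difference in either direction. Leaving out wild type replicate 1 moved it to -0.92 with an unadjusted p of 0.00048 that did not pass over all genes (limma adjusted p = 0.188), and leaving out wild type replicate 2 to -0.33.

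Most luminal markers moved with Pkp2 across the arrays, and the means of other marker lists moved with or against it. The mean of the 11 luminal markers was 7.60, 8.84 and 8.59 in wild type against 8.05, 8.15 and 7.68 in knockout cells, so wild type replicates 2 and 3 were again the high ones and wild type replicate 1 the lowest. Over the 6 arrays, which share both genotypes and the same normalization, the Pearson correlation of Pkp2 with that mean was 0.944, given as a description. With the mean of 8 skin keratinocyte markers it was 0.842. With 4 adipocyte markers it was -0.978, with 5 endothelial -0.801, with 6 fibroblast -0.757 and with 6 immune markers -0.737. Pkp2 thus also correlated with lists other than the luminal one, but a correlation takes no account of how far a list mean moves. The array means of the adipocyte markers lay only between 5.32 and 5.47. In the skin keratinocyte list Sprr1a spanned 2.05 over the arrays and each other marker at most 0.71 (Krt77). Wild type replicates 2 and 3 were the 2 highest arrays for 8 of the 11 luminal markers. The other 3 were Epcam, Elf5 and Kit, with Elf5 highest on knockout replicate 3 at 5.28. Prom1, a luminal surface protein, read 5.87, 8.21 and 8.54 in wild type against 6.64, 6.92 and 6.05 in knockout cells, and the luminal keratin Krt18 10.92, 12.16 and 11.78 against 11.20, 11.21 and 10.61. With the luminal mean as a covariate, a fit chosen after the values were seen, the log2 difference of Pkp2 was -0.23 (standard error 0.170, limma adjusted p = 1.0). The covariate was itself lower in the knockout on average, and the part of luminal or other cells in the Pkp2 signal was not tested. In sorted bulk cells, fewer cells of a type and less RNA per cell cannot be told apart.

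Pkp1, a form of stratified epithelia, and Pkp3 showed smaller differences. Pkp1 read 9.39, 8.75 and 8.91 in wild type against 9.17, 8.65 and 9.10 in knockout cells, lowest at replicate 2 in both genotypes. Its log2 difference was -0.04 (standard error 0.220, limma adjusted p = 1.0), and the sign turned when wild type replicate 1 (0.14) or knockout replicate 2 (0.12) was left out. Pkp3 read 8.03, 8.03 and 7.88 in wild type against 7.65, 8.15 and 7.73 in knockout cells. Knockout replicate 2 was the highest array of Pkp3 and the other 2 knockout arrays were the lowest. Its log2 difference was -0.13 (standard error 0.184, limma adjusted p = 1.0), and it was -0.29 without knockout replicate 2, -0.04 without knockout replicate 1 and -0.08 without knockout replicate 3.

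**Figure D2:**
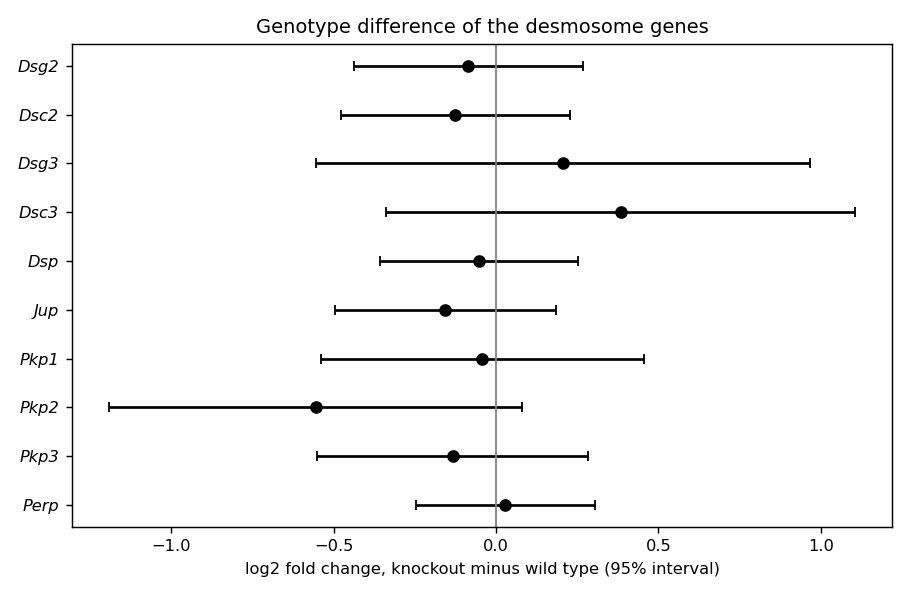
Log2 fold change of each desmosome gene, knockout minus wild type, as a point with its 95% interval from limma (3 arrays against 3). All 10 intervals cross 0; that of Pkp2 reaches from -1.19 to 0.08 and that of Perp from -0.25 to 0.30.

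Among the cadherins, Dsg3 and Dsc3, the forms of basal cells in stratified epithelia, varied most and varied together. Dsg3, the autoantigen of pemphigus vulgaris, read 5.51, 4.78 and 4.84 in wild type against 4.73, 4.98 and 6.05 in knockout cells. Dsc3, a desmocollin of the same layer, read 6.62, 5.86 and 6.19 in wild type against 6.22, 6.25 and 7.34 in knockout cells. For both genes knockout replicate 3 was the highest array and wild type replicate 1 the next, and the other 4 arrays lay below. Their Pearson correlation over the 6 arrays was 0.956, the highest among the members' pairs, and is a description only.

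The knockout means of both genes were higher, but not beyond the spread between replicates. Dsg3 had a log2 difference of 0.21 (standard error 0.336, limma adjusted p = 1.0), and its 95% interval ran from -0.56 to 0.97. Dsc3 had 0.38 (standard error 0.319, limma adjusted p = 1.0), and its interval ran from -0.34 to 1.11. Both differences rested on knockout replicate 3. Without it the value of Dsg3 turned to -0.19 and that of Dsc3 was 0.01. Leaving out wild type replicate 1 instead gave 0.44 and 0.58, knockout replicate 1 gave 0.47 and 0.57, and wild type replicate 2 gave 0.07 and 0.20.

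The arrays high in Dsg3 and Dsc3 were the 2 lowest in luminal markers, wild type replicate 1 at 7.60 and knockout replicate 3 at 7.68. The correlations of Dsg3, Dsc3 and Pkp1 with the luminal mean over the 6 arrays were -0.753, -0.802 and -0.720. Those of Dsg2, Dsc2 and Jup were 0.869, 0.643 and 0.609, while Perp was at -0.434. Dsc2 stood farther from 0 with other lists, at -0.975 with endothelial and -0.851 with adipocyte markers, the latter with array means of only 5.32 to 5.47. With the basal mean Dsg3, Dsc3, Pkp1 and Perp were at -0.587, -0.682, -0.753 and -0.627. Dsg2, Dsc2 and Jup were at 0.709, -0.101 and 0.407 with it. Pkp1 and Perp thus stood farther from 0 with the basal than with the luminal mean. With the immune mean Dsg3, Dsc3 and Pkp1 were at 0.738, 0.769 and 0.383. With the luminal mean as a covariate the log2 difference of Dsc3 was 0.08 and that of Dsg3 turned to -0.13. Basal markers had means of 10.6, 10.9 and 10.6 in wild type against 10.7, 11.0 and 10.5 in knockout cells, so the 2 arrays high in Dsg3 and Dsc3 were not high in them. The 8 measured of 9 skin keratinocyte markers were not high there either, with means of 5.94, 6.15 and 6.23 in wild type against 5.90, 6.07 and 5.91 in knockout cells. The mean of the 6 immune markers was highest on knockout replicate 3, at 5.54 against 5.04 to 5.35 on the other arrays. Lyz2 (6.38) and Ptprc (3.75) had their highest values there, while Cd3e and Csf1r were highest on wild type replicate 1 and Cd68 and Cd79a on knockout replicate 2. What part these cells have in the Dsg3 and Dsc3 signals was not tested.

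**Figure D3:**
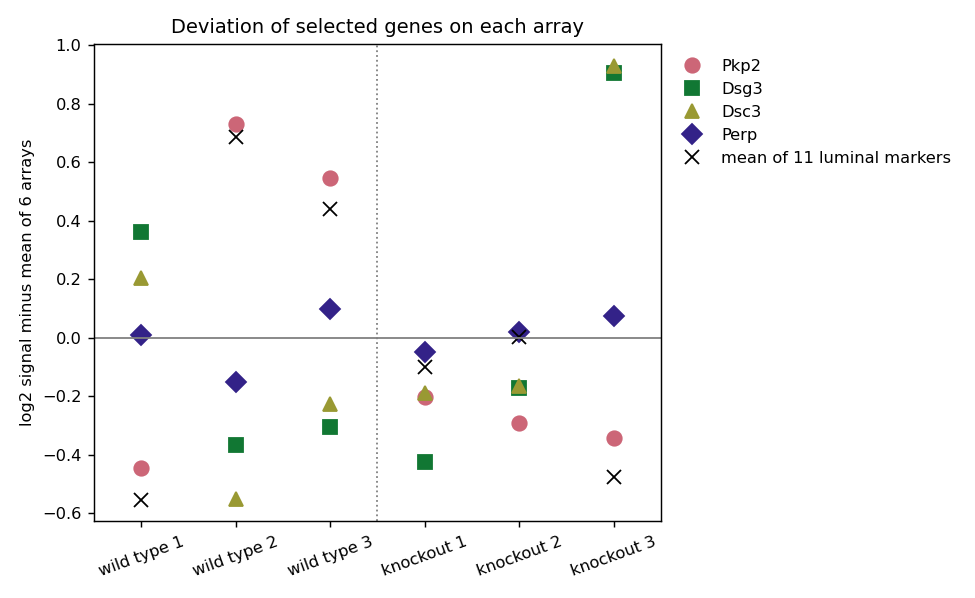
Log2 signal of Pkp2, Dsg3, Dsc3 and Perp and the mean of 11 luminal markers on each array, each minus its own mean over the 6 arrays. Pkp2 and the luminal markers are high on wild type replicates 2 and 3 and lowest on wild type replicate 1 (5.73 for Pkp2), while Dsg3 and Dsc3 are highest on knockout replicate 3 (6.05 and 7.34).

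Dsg2 and Dsc2, the widespread cadherins that also form the desmosomes of simple epithelia, varied little in the probe sets that stood for them. Dsg2 read 7.41, 7.57 and 7.48 in wild type against 7.44, 7.46 and 7.31 in knockout cells. Its log2 difference was -0.09 (standard error 0.156, limma adjusted p = 1.0), and it lay between -0.12 and -0.04 with each array left out. A dimmer probe set of Dsg2 read 5.51, 4.92 and 4.88 in wild type against 5.34, 5.04 and 5.43 in knockout cells, at a log2 difference of 0.17 (standard error 0.198). The 2 probe sets of Dsg2 therefore disagree in sign, and the dimmer one was highest on wild type replicate 1 and knockout replicate 3, the arrays on which Dsg3 and Dsc3 were high.

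Dsc2 read 5.60, 5.90 and 5.95 in wild type against 5.59, 5.66 and 5.83 in knockout cells, and its groups overlap. The mean of Dsc2 over the arrays, 5.75, was below the all-gene median of 5.78, the cut used for dim genes. The log2 difference was -0.13 (standard error 0.156, limma adjusted p = 1.0), and with each array left out it ranged from -0.23 without wild type replicate 1 to -0.06 without wild type replicate 3. The 4 cadherin genes lie in 1 cluster of 9 protein-coding genes of this family, in the order Dsc3, Dsc2, Dsc1, Dsg1c, Dsg1a, Dsg1b, Dsg4, Dsg3 and Dsg2 in the RefSeq table of assembly GRCm38.p6. Dsc3 and Dsg3, whose signals varied together, are at positions 1 and 8 of that cluster. Over the 6 arrays the correlation of Dsg3 with its immediate neighbour Dsg2 was -0.836 and that of Dsc3 with its neighbour Dsc2 was -0.0925.

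By their textbook distribution the members were split as follows. The place of Pkp3 in the basal or stratified set is loose, since it is not confined to stratified epithelium. Its correlation with the luminal mean was 0.248. The 3 widespread forms, Dsg2, Dsc2 and Pkp2, all had lower knockout means, with a median log2 difference of -0.13. Of the 5 genes put in the basal or stratified set, Dsg3, Dsc3 and Perp had higher and Pkp1 and Pkp3 lower knockout means, with a median of 0.03. Averaged over its genes, each as a deviation from its own mean, the widespread set stood at -0.21, 0.33 and 0.26 in wild type against -0.12, -0.12 and -0.13 in knockout cells. The basal or stratified set stood at 0.22, -0.24 and -0.11 in wild type against -0.15, -0.09 and 0.37 in knockout cells. Wild type replicates 2 and 3 were thus the high arrays of the first set, and wild type replicate 1 and knockout replicate 3 those of the second. In the second set only Dsg3 and Dsc3 themselves had those as their highest arrays. Pkp3 was highest on knockout replicate 2 (8.15) and Perp on wild type replicate 3 (11.16). Pkp1 was highest on wild type replicate 1 (9.39) and next on knockout replicate 1 (9.17). All 5 plaque genes had lower knockout means, with a median of -0.13, and none passed.

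**Figure D4:**
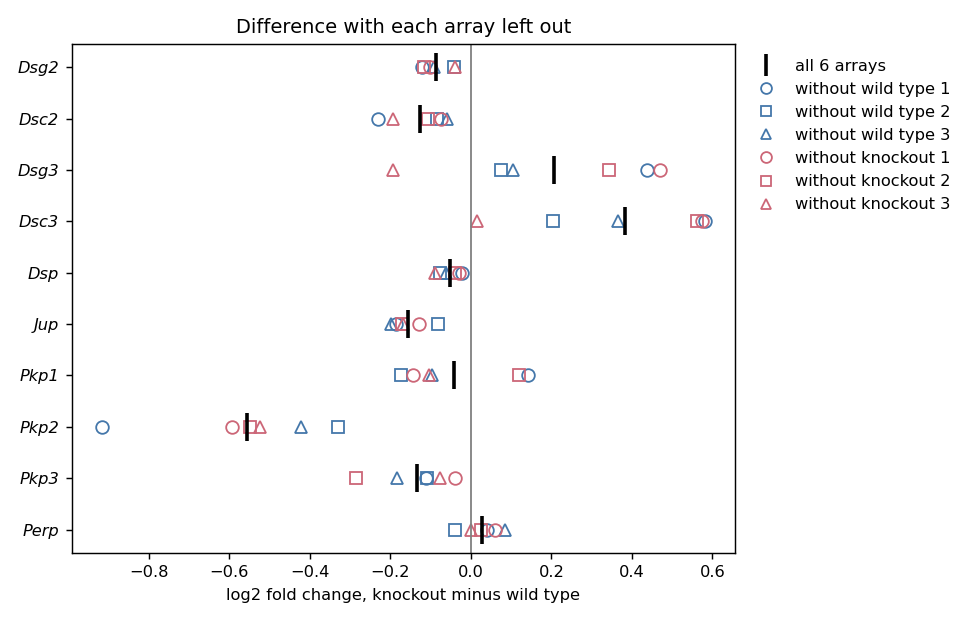
Log2 fold change of each desmosome gene, knockout minus wild type, with all 6 arrays (black bar) and with each array left out in turn (open symbols, blue for a wild type and red for a knockout array). Pkp2 ranges from -0.92 to -0.33 and Dsg3 from -0.19 to 0.47, while Dsp stays between -0.09 and -0.02.

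Other genes of the desmosome and its partners did not pass either. All 9 other desmosomal and cornified envelope plaque genes sought were measured, 4 with higher and 5 with lower knockout means and a median log2 difference of -0.02. Dsg1a, a desmoglein of upper epidermal layers, had -0.22, and Dsg1b, its close copy, 0.20. Probes of such near-identical copies may bind both transcripts, so their separate values are uncertain. Cdsn, which encodes corneodesmosin, had -0.12 and the desmoglein Dsg4 -0.10. These genes were dim, with means over the arrays of 4.48 for Dsg1a, 3.47 for Dsg1b, 4.08 for Dsg4 and 5.67 for Cdsn. All lay below the all-gene median of 5.78.

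Keratins that desmosomes anchor had lower knockout means in 8 of 8 measured genes, where 51.7% of all genes were lower. The median log2 difference was -0.30, and 0 of 8 passed. Krt14, the basal keratin, read 13.29, 13.51 and 13.30 in wild type against 13.27, 13.27 and 13.21 in knockout cells. Like Jup it had groups that do not overlap, as had 4.05% of all genes in that direction. Krt6a, an inducible keratin, read 7.20, 8.98 and 9.18 against 7.64, 7.55 and 6.94, with a log2 difference of -1.08, an SE of 0.469 and an unadjusted p of 0.0471 (limma adjusted p = 1.0). Its high arrays were wild type replicates 2 and 3, as for Pkp2 and the luminal markers. The luminal keratins Krt8, Krt18 and Krt19 had log2 differences of -0.33, -0.61 and -0.58, and Krt7 had -0.27. Each of these was also highest on wild type replicates 2 and 3. The differences of Krt14, Krt15 and Krt17 were smaller, at -0.12, -0.05 and -0.05, so the list did not move evenly.

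Adherens junction genes, whose junctions lie beside desmosomes and share plakoglobin, had 8 of 10 members lower in the knockout, with a median of -0.06 and 0 passing. Cdh1 (E-cadherin) had a log2 difference of -0.15 and Afdn -0.11, both with groups that do not overlap, while Nectin4 had -0.39 and Nectin2 -0.23. Among 10 genes of desmosome turnover and regulation, 7 were lower and 3 higher, with a median of -0.16. Adam17 and Adam10, proteases that shed cadherin ectodomains, had -0.40 and -0.37, and both were highest on wild type replicates 2 and 3. Rapgef2, an activator of Rap1, had 0.44 with every knockout array above every wild type array, and an unadjusted p of 0.0301 (limma adjusted p = 1.0). Klk5, a skin protease that cleaves desmosomal proteins, had -0.23 with every knockout array below every wild type array, and an unadjusted p of 0.111 (limma adjusted p = 1.0). The mean of Klk5 over the arrays, 5.08, was below the all-gene median of 5.78. Of all genes 7.68% had groups apart in either direction and 4.05% with the knockout lower.

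Neither p63 nor other targets of p63 and p53 passed. Trp63, which encodes p63, a regulator of Perp, read 7.41, 7.97 and 7.17 in wild type against 7.87, 8.16 and 7.59 in knockout cells, with replicate 2 the highest and replicate 3 the lowest of each genotype. Its log2 difference was 0.35 (standard error 0.244, limma adjusted p = 1.0). Same-numbered arrays differed by 0.46, 0.18 and 0.41, and with replicate as a block the standard error was 0.166, which did not pass either (limma adjusted p = 0.996). With Perp included, 8 of the 10 genes of p63 and its adhesion targets were higher in the knockout, with a median of 0.05, and 0 passed. Fat2, an adhesion protein of stratified epithelia, had 0.41 and the basement membrane protein Fras1 -0.23. Of the p53 targets 14 of 16 were measured, Perp among them, 10 higher and 4 lower with a median of 0.04, and 0 passed. Sesn1 had 0.47, Zmat3 -0.28 and Mdm2, the p53 antagonist, 0.24. The mean of Sesn1 over the arrays, 4.39, was below the all-gene median of 5.78.

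**Figure D5:**
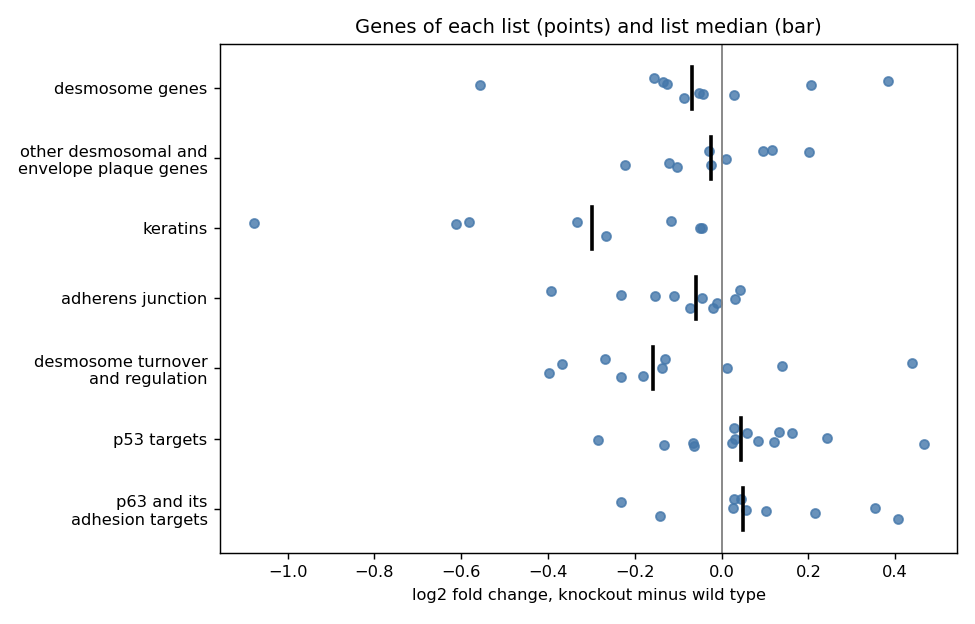
Log2 fold change, knockout minus wild type, of each measured gene (points, scattered vertically for legibility) in 7 lists, with the list median as a bar. The keratins are all below 0 with Krt6a at -1.08, and the medians of the other lists lie between -0.16 and 0.05.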

How the data were processed

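The authors deposited 1 log2 expression value per probe set and array. The tools named in the submitters' processing notes are RMA, a background correction, between-array normalization and probe summary in one, and Transcriptome Analysis Console 4.0. A between-array normalization removes any difference shared by all genes. Of 41345 rows, 23521 had exactly 1 gene symbol in the platform annotation, 1814 several and 16010 none. Where a gene had more than 1 row, that of highest mean stood for it, leaving 22180 genes. Genotypes were compared over all of them in limma 3.58.1 (R 4.3.3) by lmFit and eBayes with trend = TRUE. Tests were two-sided, p-values were adjusted by Benjamini-Hochberg and the threshold was 0.05. Intervals cover 95%. The fit was tested on simulated data. Figures were drawn with matplotlib 3.10.9. The number of arrays, 3 per genotype, limits the precision.

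The labels number the replicates alike in both genotypes. Deviations from the group means correlated by 0.121, 0.250 and 0.127 between same-numbered arrays. Wild type replicate 1 correlated as much with knockout replicate 3, at 0.130. No label says what arrays of the same number share. The main comparison of the genotypes left the arrays unpaired, and pairing by number was tried as an alternative.

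The members and lists were chosen with earlier results of these data known. All members are named. In each other list any of the 4 genes of smallest p could be named. Some immune and luminal markers and some keratins outside these were named after their values were seen. Dsc1 and Dsg1c are named for their place in the cadherin cluster. By likeness to Perp the 5 nearest genes with a mean of at least 6 were taken. Krt5, Bax, Gdf15, Areg and loricrin were not analysed here. The alternatives were another eBayes prior, array weights, quantile normalization, median centring, leaving out dim genes, other rows per gene, a replicate block, and each array left out.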

Additional observations from a re-analysis of the deposited data

How the results depend on the processing

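Over all genes and among the members, limma called 0 under every alternative run, including each array left out. Relaxing the threshold to an unadjusted p under 0.05 gave 736 genes and 0 members. The members' median log2 difference stayed between -0.11 and -0.05. With replicate as a block the members' values did not move, since each pair is complete. The lowest member p was then 0.0531, for Pkp2 (limma adjusted p = 0.991), and the block changed no call. Dsc2, Dsc3, Dsp, Pkp2, Pkp3 and Jup kept their sign under each alternative run on them. Leaving out dim genes removed Dsg3 and Dsc2. The sign turned for Dsg2 with the mean of its rows (0.041) or the row of highest variance (0.17), and for Pkp1 with array weights (0.058). For Perp it turned with array weights (-0.046) and the luminal covariate (-0.0025), and for Dsg3 with that covariate (-0.13). With each array left out in turn, values ranged from -0.040 to 0.085 for Perp, from -0.17 to 0.14 for Pkp1 and from -0.19 to 0.47 for Dsg3. They fell on the other side of 0 without wild type replicate 2 (-0.040) or knockout replicate 3 (-0.00072) for Perp, wild type replicate 1 (0.14) or knockout replicate 2 (0.12) for Pkp1, and knockout replicate 3 (-0.19) for Dsg3. The cause was not tested.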
